A study of Mus musculus with 6 samples.

Results

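Rmrp and Rny3 are short noncoding RNAs that RNA polymerase (Pol) III makes from 1 gene each in the mouse, and both were measured in the superior duodenum of male mice with 1 working copy of a Pol III subunit gene. They were taken from the deposited table by transcript identifier without its version number, ENSMUST00000226420 for Rmrp and ENSMUST00000083011 for Rny3, and are 2 of its 1630 transcripts. The study asked whether a partial loss of Pol III acts equally on all RNAs that the enzyme makes. The table holds 3 Polr3B-/+ males, heterozygous for the allele Polr3b<em7(IMPC)Tcp> on C57BL/6N, and 3 wild-type C57Bl/6N males. Each genotype was bred from its own matings, of Polr3B-/+ or of wild-type offspring with wild-type mice. The genotype of a mouse and that of its parents therefore cannot be told apart. The allele is a Cas9-made insertion that is predicted to shift the reading frame early in the protein, and it is carried in every cell from conception on. All mice were fasted overnight, and their age is not given in the sources used here. The 3 columns of Polr3B-/+ mice are called mouse 1, 2 and 3 here by the number in the column's name, and which column belongs to which labelled animal is not known.

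Pol III makes tRNAs, 5S rRNA and a small set of other short RNAs, among them the RNAs described here. Rmrp is the RNA component of RNase MRP, an enzyme of RNA and protein that works in the nucleolus on the precursor of ribosomal RNA, and mutations of the human gene cause cartilage-hair hypoplasia. Y RNAs such as Rny3 are short stem-loop RNAs that bind the Ro60 protein, which is linked to RNA quality control, and they have been tied to the start of DNA replication. Both kinds of gene are driven by promoters that lie upstream of the transcribed part, unlike the internal promoters of tRNA genes.

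Rny3 lies on chromosome 6 of GRCm38 (GENCODE M21), from 47781624 to 47781725 on the forward strand, and Rny1, the other Y RNA of the mouse, lies 6343 bases away on the reverse strand, from 47788069 to 47788180. Each is a single exon, of 102 and 112 bases. Their RNA sequences are printed together since the 2 Y RNAs are compared below. They are given 5′ to 3′ with T for U, and the capitals mark stretches of at least 6 bases that are identical in an alignment of the pair.
Rny3: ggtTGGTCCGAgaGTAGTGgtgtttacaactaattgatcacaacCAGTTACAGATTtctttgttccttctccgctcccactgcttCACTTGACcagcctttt
Rny1: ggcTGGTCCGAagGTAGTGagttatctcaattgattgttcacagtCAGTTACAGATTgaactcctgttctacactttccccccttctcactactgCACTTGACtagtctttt
The alignment paired 80 identical bases, 78.4% of Rny3 and 71.4% of Rny1. The 4 stretches in capitals fall near the ends of the RNAs and in the middle, and both RNAs end in a run of 4 T, the kind of run at which Pol III stops. No other transcript of the table with a sequence in GENCODE M21 reached 80% identity over 80% of Rny3. Gm26168, at 92.7% identity, is a close match of Rny1, and it had 1 count in 1 mouse.

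Rmrp lies on chromosome 4 of GRCm38, from 43492783 to 43493063 on the reverse strand, and is a single exon of 281 bases there. Its sequence is shown to make its length and base composition plain, and the capitals mark the 275 bases that RefSeq (GRCm38.p6) gives as the gene.
Rmrp: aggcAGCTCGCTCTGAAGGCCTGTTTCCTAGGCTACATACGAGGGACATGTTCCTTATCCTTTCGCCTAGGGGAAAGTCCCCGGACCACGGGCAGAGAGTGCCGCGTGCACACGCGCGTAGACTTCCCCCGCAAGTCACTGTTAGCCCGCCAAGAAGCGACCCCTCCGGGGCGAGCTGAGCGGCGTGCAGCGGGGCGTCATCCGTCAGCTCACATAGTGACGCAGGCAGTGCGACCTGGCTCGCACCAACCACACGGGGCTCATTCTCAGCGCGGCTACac
Rmrp is richer in G and C, at 63.7%, than Rny3, at 45.1%, and no other transcript of the table with a sequence reached 80% identity over 80% of it. GENCODE M21 also annotates a shorter Rmrp transcript on the same strand, from 43492788 to 43493058, whose 271 bases lie within this one and for which no counts were analysed here. It is also longer than the 200 nucleotides to which the authors selected the RNA, whereas Rny3 is well under that limit. An exon of the protein-coding gene Ccdc107, from 43492900 to 43493023 on the opposite strand, lies wholly within Rmrp and shares 124 bases with it. Whether the counting used strand is not given in the sources used here, so reads of that stretch cannot be assigned to one of the genes from the counts alone.

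Libraries summed to between 2114055 and 6037849 counts over transcripts shorter than 300 bases, and 1 transcript without a name in GENCODE M21 held from 16.7% to 47.7% of them. The share of any other RNA therefore moves with that transcript, and levels are given below on 2 scales. The first, CPM, is the count for every 1000000 counts of the library. In edgeR fits with library totals, the total is instead that of the transcripts with enough counts to be tested. The second is CPM after TMM normalization, which rescales each library so that most transcripts keep their level. Polr3b mRNA is too long to be in this table and cannot serve as a check of genotype. As a check of the tissue, all 7 listed microRNA hairpins of intestinal epithelium had counts, from 7 to 82 summed per mouse. Of 6 hairpins listed for muscle, 2 had a row, and these summed to between 2 and 21. Of 3 listed for blood cells, 2 had a row, and these summed to between 0 and 16. Those for pancreas, liver and neurons had no row. The counts are few and the numbers of rows differ, so the sums do not rank the cell types.

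The difference in Rmrp between genotypes was within the spread between mice. In whole tissue, fewer cells that hold an RNA and less of it per cell cannot be told apart. Its counts were 4183, 1586 and 2737 in Polr3B-/+ mice 1, 2 and 3 and 1685, 5036 and 5488 in wild-type mice 1, 2 and 3. After TMM scaling, these were 805, 805 and 905 CPM in the Polr3B-/+ mice and 937, 1254 and 812 CPM in the wild type. The ranges overlapped, with wild-type mouse 2 alone standing above all Polr3B-/+ mice by more than their own spread. The means were 838 ± 57.8 and 1001 ± 228 CPM (SD, n = 3 each). This gave -0.26 as the log2 fold change, with a 95% confidence interval from -0.97 to 0.46 (edgeR quasi-likelihood test, adjusted p = 0.999 over all 560 tested transcripts). Scaled by library totals, the order of the mice changed. Polr3B-/+ mouse 2 was then the lowest, at 661 CPM, and mouse 1 was above 2 of the 3 wild-type mice at 1005 CPM, with 957 in mouse 3 and 797, 1105 and 909 CPM in wild-type mice 1, 2 and 3. The mean log2 of these CPM differed by -0.11 between genotypes. In edgeR, with totals of the tested transcripts only, the log2 fold change was -0.05, with an interval from -1.06 to 0.95.

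Rny3 had a higher mean in the Polr3B-/+ mice on either scale, and the groups were parted on one of them. Its counts were 2535, 1954 and 2162 in Polr3B-/+ mice 1 to 3 and 1019, 2479 and 2785 in wild-type mice 1 to 3. After TMM scaling, they came to 488, 992 and 715 CPM in the Polr3B-/+ mice and 567, 617 and 412 CPM in the wild type. Polr3B-/+ mouse 1 lay below 2 wild-type mice, and mouse 2 was the highest of all 6. Means of 731 ± 253 and 532.1 ± 107 CPM were found (SD, n = 3 each). The log2 difference from edgeR was 0.46, with a 95% confidence interval from -0.40 to 1.32 (quasi-likelihood test, adjusted p = 0.999). On this scale, in which neither member's genotypes were parted, 2.14% of the tested transcripts had every Polr3B-/+ mouse above every wild-type mouse and 4.11% had every one below. Without Polr3B-/+ mouse 2, the log2 fold change was 0.18.

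Scaled by library totals, Rny3 was at 609, 814 and 756 CPM in Polr3B-/+ mice 1 to 3 and at 482, 544 and 461 CPM in wild-type mice 1 to 3. Here all 3 Polr3B-/+ mice were above all 3 wild-type mice, at 609 CPM or more against 544 CPM or less. Of the 560 tested transcripts, 2.5% had every Polr3B-/+ mouse above every wild-type mouse on this scale, and 1.43% had every one below. The mean log2 of these CPM differed by 0.54 between genotypes. In edgeR, with totals of the tested transcripts only, the log2 fold change was 0.59 with an interval from -0.35 to 1.52 (quasi-likelihood test, adjusted p = 0.992). In edgeR, those totals in place of TMM raised the fold change of the median tested transcript by 0.19 on the log2 scale. They turned the balance of all tested transcripts from 250 higher and 310 lower to 339 higher and 221 lower. The median of all tested transcripts was -0.05 with TMM and 0.14 with totals, so Rny3 stood above it on either scale, while Rmrp stood below it. Counting error was small beside these differences, with a 95% Wilson interval of at most 6.14% of the share to either side, which covers counting error only.

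**Figure D1:**
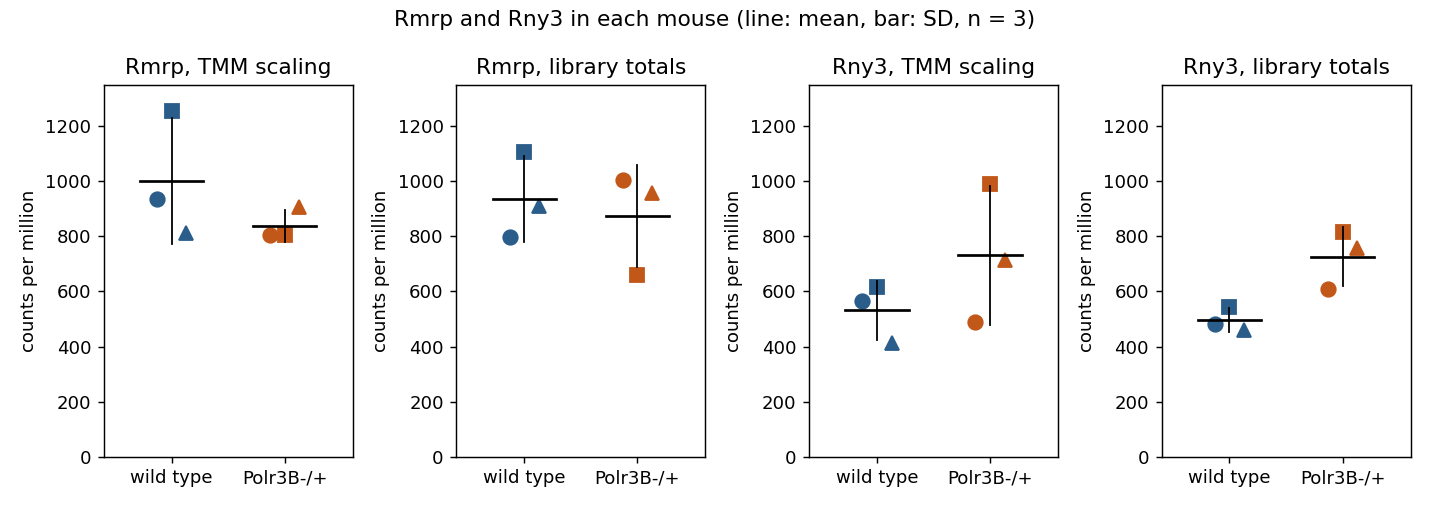
Level of Rmrp and Rny3 in CPM for each mouse (circle, square and triangle: mice 1, 2 and 3 of each genotype), after TMM scaling and per library total. The line is the mean and the bar the SD of 3 mice. The genotypes overlap in each panel but the last, where Rny3 is at 609 CPM or more in Polr3B-/+ mice and at 544 or less in wild type.

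A ratio of 2 counts from the same library does not depend on how the library is scaled, so the members were next set against each other within each mouse. There were 0.606, 1.23 and 0.790 counts of Rny3 for each count of Rmrp in Polr3B-/+ mice 1, 2 and 3. In wild-type mice 1, 2 and 3, there were 0.605, 0.492 and 0.507. All Polr3B-/+ mice were thus above all wild-type mice, but by almost nothing between mouse 1 of each genotype. Counting error alone gave those 2 ratios 95% intervals from 0.577 to 0.637 and from 0.559 to 0.654, which overlap widely. The mean log2 ratio was -0.25 ± 0.52 in Polr3B-/+ and -0.91 ± 0.16 in wild type (SD, n = 3 each), a difference of 0.65, or 1.57-fold (two-sided exact permutation test, p = 0.1, which is the lowest this design can reach). Leaving out Polr3B-/+ mouse 2 lowered the difference to 0.38. Set against Rmrp in the same way, 7.16% of the other tested transcripts had every Polr3B-/+ mouse above every wild-type mouse and 1.43% had every one below, so this parting is found in 40 of 559 transcripts.

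Rny1 was used as a partner closer to Rny3 in length and sequence, a choice made after its values were seen. Its counts were 684, 444 and 522 in Polr3B-/+ mice 1 to 3 and 324, 683 and 1222 in wild-type mice 1 to 3. After TMM scaling it had 177 ± 47.0 CPM in Polr3B-/+ and 177 ± 6.06 CPM in wild type (SD, n = 3 each). The log2 difference was -0.0052, with an interval from -0.71 to 0.70 (edgeR, adjusted p = 0.999). The sign of that value turned with the scaling, to 0.11 with library totals. For each count of Rny1 there were 3.71, 4.40 and 4.14 of Rny3 in Polr3B-/+ mice 1 to 3 and 3.15, 3.63 and 2.28 in the wild type. Again the groups did not overlap, with the closest pair, Polr3B-/+ mouse 1 and wild-type mouse 2, differing by a factor of 1.02. The mean log2 ratios were 2.03 ± 0.13 and 1.57 ± 0.34 (SD, n = 3 each), a difference of 0.46 (exact two-sided permutation test, p = 0.1). Against Rny1, 0.894% of the other tested transcripts had every Polr3B-/+ mouse above every wild-type mouse and 1.97% had every one below. The ratio of Rny1 to Rmrp, in contrast, overlapped, with 0.164, 0.280 and 0.191 in Polr3B-/+ mice and 0.192, 0.136 and 0.223 in the wild type (difference 0.20 on the log2 scale, exact two-sided permutation test, p = 0.6). Polr3B-/+ mouse 2 had the highest value in each of the 3 ratios.

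**Figure D2:**
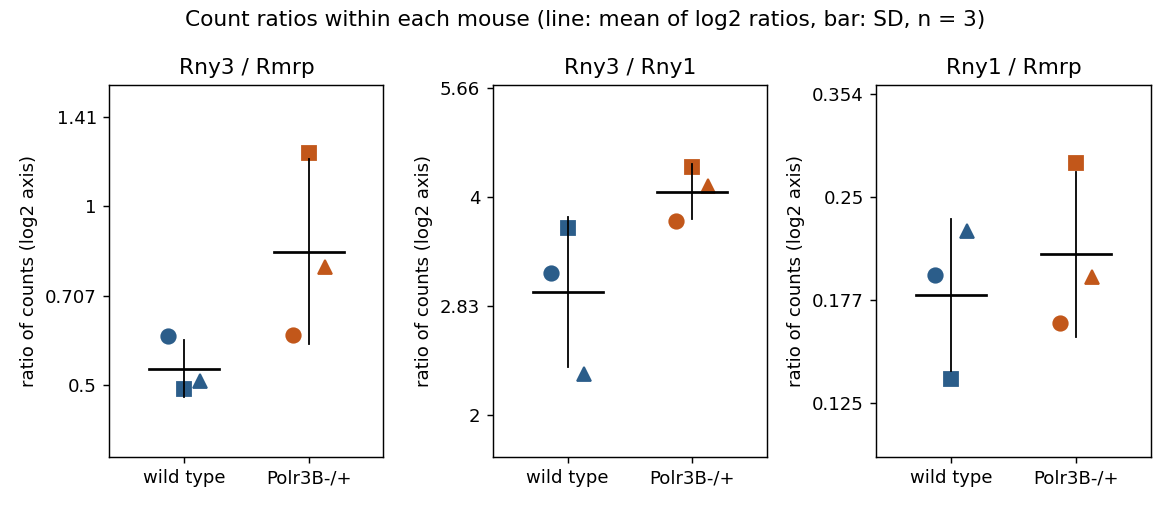
Ratios of counts within each mouse on a log2 axis (circle, square and triangle: mice 1, 2 and 3 of each genotype), with the mean of the log2 ratios as a line and their SD as a bar (n = 3). Rny3 over Rmrp and Rny3 over Rny1 are higher in every Polr3B-/+ mouse, by factors of 1.002 and 1.02 for the closest pair, and Rny1 over Rmrp overlaps.

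Rmrp is longer than the size to which the RNA was selected, so the retention of longer RNAs was looked at beside these ratios. Over other named transcripts, the 10 most abundant of the table left out, the summed counts of 184 transcripts of 90 to 120 bases were divided by those of 406 transcripts over 200 bases. The quotient was 5.83, 5.15 and 3.99 in Polr3B-/+ mice 1 to 3 and 3.87, 4.30 and 11.3 in wild-type mice 1 to 3. By the median level of the 46 tested transcripts of 90 to 120 bases over that of the 19 above 200 bases, in place of sums, the quotient was 2.13, 14.5 and 1.66 in Polr3B-/+ mice and 2.48, 4.04 and 8.45 in wild-type mice, in the same order. The groups overlapped by either measure. Wild-type mouse 3 was highest by the sums, and Polr3B-/+ mouse 2, which had the highest ratio of Rny3 to Rmrp, was highest by the medians. The part of length in that ratio was not tested.

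The spread between mice of the same genotype was low for Rmrp on either scale and for Rny3 with library totals. Rmrp ranked 108 of 560 tested transcripts by mean CPM and Rny3 ranked 136, while per kilobase of transcript, among the 341 tested with a length, Rny3 ranked 55 and Rmrp 84. Per length, Rny3 was thus at 6194 CPM per kilobase and Rmrp at 3273, a ratio of 1.89 in level. Rmrp, unlike Rny3, is longer than the 200 nucleotides of the size selection, and the part of that in this ratio was not tested. The within-genotype SD of log2 CPM (prior count 2) was 0.24 for Rmrp after TMM scaling, and 37 transcripts had a smaller one, where the median of all tested was 0.53. For Rny3 it was 0.42, with 195 smaller. The 113 transcripts within a factor of 2 of the members' range of level had a median of 0.51. With library totals in place of TMM, the spread of Rny3 fell to 0.18, with 3 of 560 transcripts smaller, and that of Rny1 to 0.18, with 4 smaller. For Rmrp it rose to 0.29, with 23 smaller and a median of all of 0.63.

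**Figure D3:**
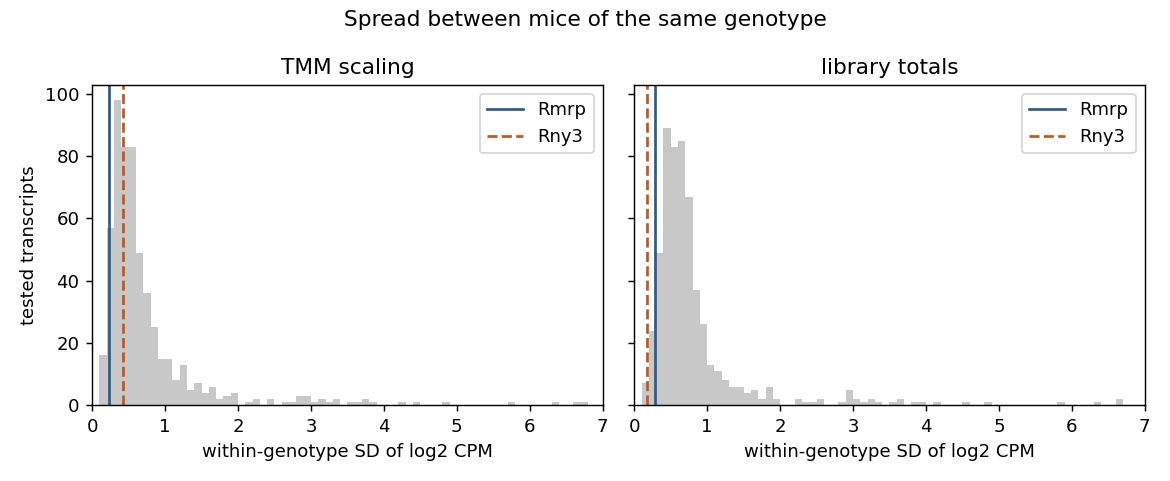
Histogram of the within-genotype SD of log2 CPM over the 560 tested transcripts, after TMM scaling and with library totals, with lines at Rmrp and Rny3. Rmrp lies in the left tail on both scales (0.24 and 0.29), and Rny3 moves there from 0.42 to 0.18 with library totals.

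The patterns of Rmrp and Rny3 over the mice had little in common, with r = 0.05 between them after TMM scaling and -0.35 with library totals, over 6 mice of both genotypes. The named transcripts most like Rmrp were snoRNAs, the guides of rRNA modification that are not made by Pol III in mammals. They were Gm23451 (r = 0.95), Gm22486 (r = 0.94) and Snord35b (r = 0.93). Those most like Rny3 were also snoRNAs, Snord87 (r = 0.91), Gm23442 (r = 0.88) and Snord42a (r = 0.86). These values are after TMM scaling, and with library totals they were 0.96, 0.92 and 0.92 for the RNAs most like Rmrp and 0.84, 0.76 and 0.72 for those most like Rny3. These are descriptions over 6 mice, picked as the highest of 340 named transcripts.

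Other Pol III RNAs, tRNAs left aside, were listed by name or by sequence match. A match had at least 80% identity over at least 80% of a named 5S, U6 or Y RNA. Whether Pol III makes each matched transcript was not tested. Of 85 such transcripts in the table, 20 had enough counts to be tested, Rmrp and Rny3 included, and 0 passed 10% FDR. Over all transcripts, 0 of 560 passed (0%). An unadjusted p under 0.05 was found for 0 of the 20 and for 20 of the 560. DESeq2 on all transcripts, of which it tested 1614, called 0 of the list and 3 outside it. In the list, 6 were higher and 14 lower in Polr3B-/+ mice, with a median log2 fold change of -0.23 after TMM scaling. Over all tested transcripts, 250 were higher and 310 lower, with a median of -0.05. With library totals, all tested transcripts leaned the other way, with 339 higher and 221 lower. The list's own balance with library totals is not given here. Its most abundant tested RNA of each class moved up as well, such as the U6 transcript Gm22363 from -0.41 to -0.16 and Bc1 from 0.28 to 0.50. Of the list's transcripts that were lower after TMM scaling, 9 were 5S copies, between which reads may have been divided. None of the list's differences passed 10% FDR.

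Bc1, a short RNA known from neurons, was at 41.8 ± 8.60 CPM in Polr3B-/+ and 34.6 ± 13.2 in wild type (SD, n = 3 each), and its log2 difference of 0.28 had an interval from -0.64 to 1.20. That difference was 0.00086 without wild-type mouse 3, 0.090 without Polr3B-/+ mouse 3 and 0.52 without wild-type mouse 1. For U6, the spliceosomal RNA that Pol III makes, 5 of 58 transcripts were tested, with fold changes from -0.41 to 1.20 on the log2 scale. The most abundant, Gm22363, was at the lower end, with 42.5, 20.3 and 40.7 CPM in Polr3B-/+ mice 1 to 3 and 38.9, 50.5 and 48.0 CPM in wild-type mice 1 to 3. Without Polr3B-/+ mouse 2 its fold change was -0.14 on the log2 scale. For 5S rRNA, an RNA of the large ribosomal subunit, 11 of 19 transcripts were tested, 9 of them lower in Polr3B-/+ mice. The widest interval of the list belonged to the 5S transcript Gm24089, from -7.08 to 1.02, and rested on wild-type mouse 1, which had 2786 CPM where the other 5 mice had from 30.8 to 241. Without that mouse its log2 fold change was 1.62. U6 and 5S have many similar copies between which reads may have been divided. The 2 RNase P transcripts and the 1 7SL transcript of the table were below the limit for testing. The table stops at 300 bases, so longer transcripts of these classes were not measured here. Rprl2 had 2 counts in 1 mouse and 0 in the other 5, and Rn7s6 had from 3 to 20 counts per mouse. Rny3 and Rmrp were the most abundant named RNAs of the list in 5 of 6 mice, the exception being wild-type mouse 1, in which Gm24089 had 5009 counts.

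**Figure D4:**
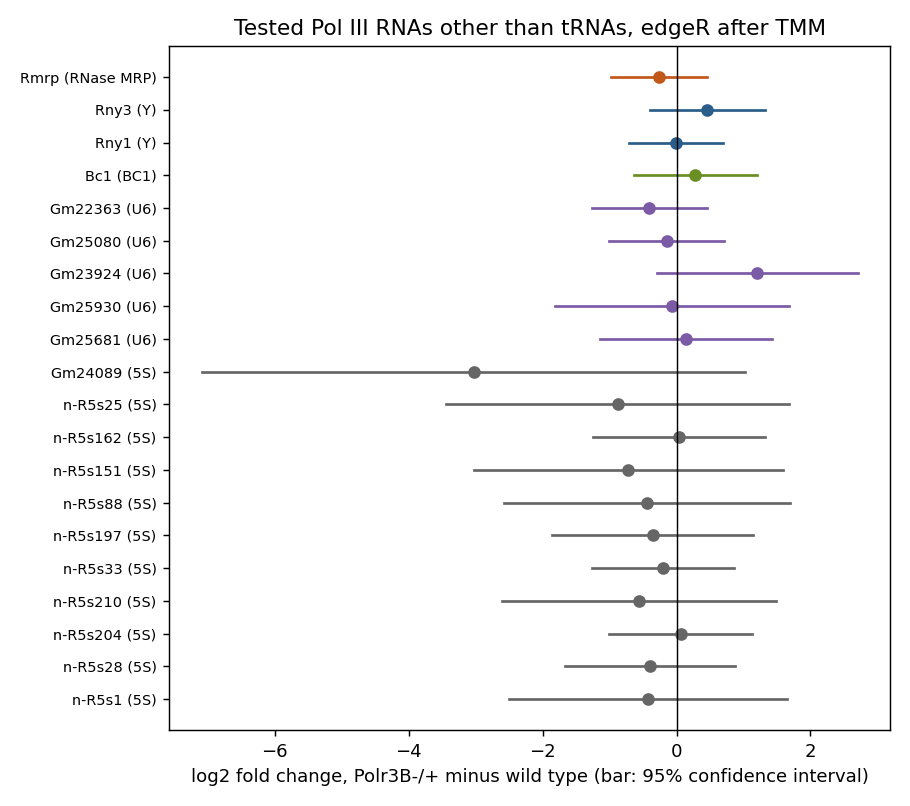
Log2 fold change of each of the 20 tested Pol III RNAs, Polr3B-/+ minus wild type, from edgeR after TMM, with its 95% confidence interval as a bar and the class as colour. Every interval spans 0, and those of Rmrp (-0.97 to 0.46) and Rny3 (-0.40 to 1.32) are among the narrower ones.

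Over the alternative settings, log2 fold changes of Rny3 ran from 0.18 to 0.73 and those of Rmrp from -0.38 to 0.043. The highest value of each was found with totals summed without the 10 most abundant transcripts. None of these settings brought either RNA past 10% FDR, with a lowest adjusted p of 0.776 for Rny3 and 0.820 for Rmrp.

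**Figure D5:**
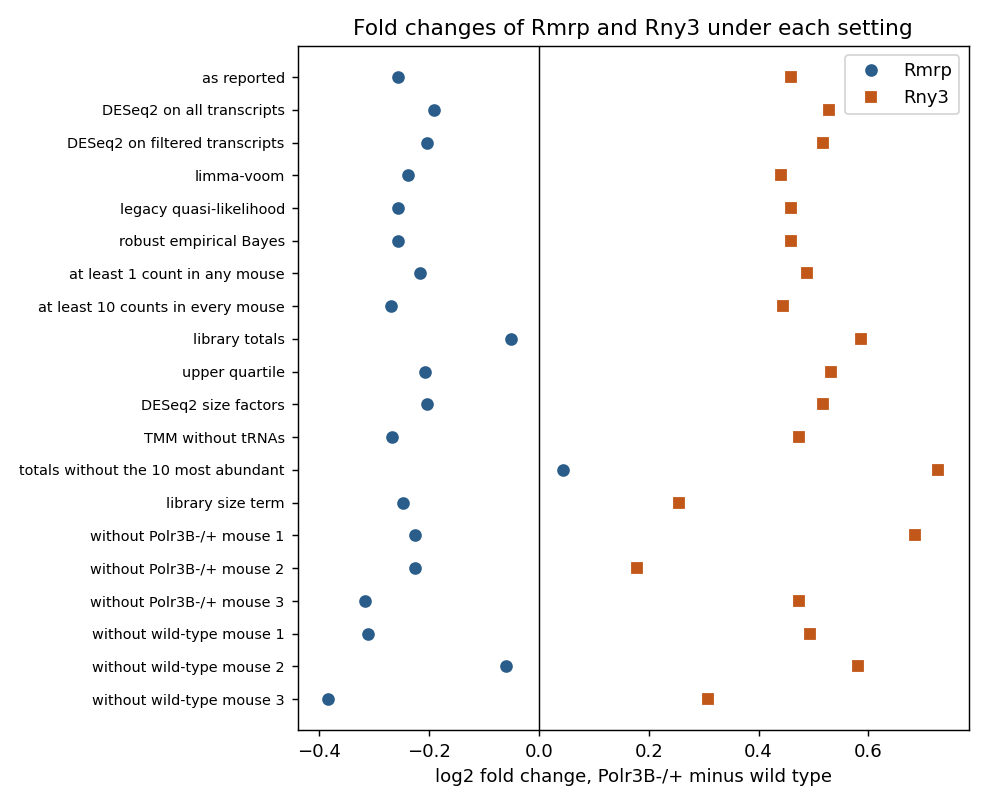
Log2 fold change of Rmrp (circles) and Rny3 (squares), Polr3B-/+ minus wild type, under each setting named on the vertical axis. Rny3 stays to the right of 0 throughout, from 0.18 to 0.73, and Rmrp stays to the left but for 1 setting, at 0.043.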

How the data were processed

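Short RNA of the duodenum was measured in 3 Polr3B-/+ and 3 wild-type males. The authors selected RNA under 200 nucleotides, demethylated it, trimmed reads with Cutadapt and quantified transcripts with Salmon on a GRCm39 index. They deposited Salmon's estimated counts of transcripts under 300 bases as whole numbers, without normalization. The labels also name FastQC and DESeq2. All 6 columns were used, with depths from 2114055 to 6037849 counts.

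Counts were tested in R 4.3.3 by edgeR 4.0.16 (filterByExpr with a minimum count of 10, TMM, glmQLFit with legacy off, glmQLFTest, no covariates), with Benjamini-Hochberg adjustment over 560 transcripts and 10% FDR. Standard errors are the fold change over the square root of F. The code was tested on simulated data. DESeq2 1.42.0, limma 3.58.1, other filters, scalings and thresholds, a term for library size and leaving out each mouse were alternatives. Names and coordinates come from GENCODE M21 (GRCm38), joined by identifier without version for 1136 of 1630 transcripts. The 312 Ensembl identifiers not found there have no sequence here and could hold further copies. The versions of Rmrp and Rny3 differ between table and GENCODE. Copies were searched with blastn 2.17.0.

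Named transcripts are Rmrp, Rny3, the most abundant of each Pol III class, the 3 named transcripts most correlated with each, and their neighbours in level, which are not printed. Members, lists and tests were chosen with earlier results of these data known.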

Additional observations from a re-analysis of the deposited data

How the results depend on the processing

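Rmrp turned to 0.043 on the log2 scale with totals summed without the 10 most abundant transcripts. Rny1 turned to 0.066 and 0.052 with DESeq2 on all and on filtered transcripts, 0.022 with transcripts of at least 1 count, 0.11 with library totals, 0.080 with the upper quartile, 0.054 with DESeq2's size factors and 0.26 without the 10 most abundant. The cause was not tested. Fits that each left out 1 mouse ran from -0.38 to -0.060 for Rmrp, 0.18 to 0.68 for Rny3, -0.22 to 0.17 for Rny1, -4.12 to 1.62 for Gm24089, 0.38 to 0.89 for the log2 ratio of Rny3 to Rmrp and 0.27 to 0.61 for that of Rny3 to Rny1. Rmrp was at -0.060 without wild-type mouse 2 and at -0.38 without wild-type mouse 3, and Rny3 at 0.31 without wild-type mouse 3 and 0.26 with a term for library size. Summing all Y RNAs gave a ratio to Rmrp of 0.55 on the log2 scale (exact permutation p = 0.2), in which the genotypes overlapped. DESeq2 called 3 short RNAs on all transcripts, of which it tested 1614, and 3 on the filtered ones, where edgeR called 0 of 560. None of the listed Pol III RNAs was called by DESeq2. The labels pair no heterozygous mouse with a wild-type mouse, so no paired analysis was run. With 3 mice against 3, exact tests cannot go below p = 0.1.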
